A study of Homo sapiens with 18 samples.

Results

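TFIIH is the general transcription factor that opens promoter DNA for RNA polymerase II (RNAPII) and the target of triptolide (TPL). Its 10 subunit genes were followed here as mRNA and as RNAPII peaks at their transcription start sites (TSSs). The genes were chosen by name, as the rows of the RNA-Seq files whose gene ID is that of ERCC3, GTF2H4, GTF2H5, ERCC2, GTF2H1, GTF2H2, GTF2H3, CDK7, CCNH or MNAT1. They are 10 of the 23604 genes listed in at least 1 library. The cells were MCF10A-ErSrc, a human breast epithelial line that carries the v-Src oncoprotein joined to the ligand-binding part of the oestrogen receptor, so that tamoxifen switches it on. Non-treated (NT) cells carried the fusion but received no tamoxifen, and tamoxifen-treated (TAM) cells were transformed with it. Before harvest both kinds of cells were given either DMSO or a single dose of TPL during 4 h, which made 4 groups, written NT, NT+TPL, TAM and TAM+TPL. Of 18 samples, 8 were RNA-Seq libraries of poly-A RNA, with 2 biological replicates per group, 8 were RNAPII ChIP samples and 2 were inputs. All groups came from a single cell line, so the replicates are cultures of that line.

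TFIIH has a core and a kinase module. In the core, XPB (ERCC3) is the ATPase that opens the promoter, and p52 (GTF2H4) and p8 (GTF2H5) bind XPB and stimulate it. XPD (ERCC2) is the helicase that opens DNA during nucleotide excision repair, and p62 (GTF2H1), p44 (GTF2H2) and p34 (GTF2H3) complete the core. The kinase module, CAK, holds the kinase CDK7, its cyclin H (CCNH) and the assembly factor MAT1 (MNAT1), and it phosphorylates the RNAPII tail. TPL binds XPB covalently and blocks its ATPase. Mutations in several of these genes cause xeroderma pigmentosum or trichothiodystrophy.

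4 stretches of promoter sequence are shown because the results below turn on these genes. ERCC3 encodes the TPL target, GTF2H4 had the strongest fall in mRNA among the 10 genes, and GTF2H5 and GTF2H3 were the members whose mRNA was not lower with TPL. Of these, GTF2H5 and GTF2H3 start back to back with a neighbour, and for them the whole stretch between both main TSSs is given. All were read from GRCh37, the build of the peak files (hg19), and are written 5′ to 3′ on the strand of the gene. Capitals mark CCGGAAG, the core of an ETS factor motif, on either strand, and CCAAT, the core of an NF-Y motif.
ERCC3, chr2:128051721-128051820, minus strand, the 100 bases before the main TSS: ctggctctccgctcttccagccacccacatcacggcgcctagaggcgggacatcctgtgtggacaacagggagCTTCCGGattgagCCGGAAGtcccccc
GTF2H4, chr6:30875884-30875983, plus strand, the 100 bases before the main TSS: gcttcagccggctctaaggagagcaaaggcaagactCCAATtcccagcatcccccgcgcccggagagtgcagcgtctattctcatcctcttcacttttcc
GTF2H5, chr6:158589295-158589381, plus strand, the 87 bases between the SERAC1 and GTF2H5 TSSs: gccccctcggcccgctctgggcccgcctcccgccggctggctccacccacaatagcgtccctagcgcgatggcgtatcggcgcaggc
GTF2H3, chr12:124118234-124118375, plus strand, the 142 bases between the EIF2B1 and GTF2H3 TSSs: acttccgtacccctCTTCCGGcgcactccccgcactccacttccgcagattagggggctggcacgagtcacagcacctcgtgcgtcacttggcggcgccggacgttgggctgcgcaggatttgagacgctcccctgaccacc

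The ERCC3 stretch held 2 copies of CCGGAAG, one on each strand, and the GTF2H3 stretch held 1. In RefSeq windows of GRCh38.p14, from 250 bases before to 50 bases after a gene's start, all 10 members had an entry. CCGGAAG or its complement was in the windows of 4 members (ERCC3, GTF2H1, GTF2H2 and GTF2H3) and in 10.3% of 35116 windows. GGGCGG, the GC box bound by Sp factors, was in those of 7 members and in 45% of all windows. CCAAT was in those of GTF2H4 and ERCC2 and in 34.6% of all. TATAAA, the TATA box, was in the windows of 0 members and in 11.5% of all. Both strands were searched, and these 4 motifs do not contain one another. The 10 members had 11 windows and are counted by gene, while the windows of the whole set are counted singly. That set was not matched to the members in CG dinucleotides. The GTF2H5 window was the richest of the members in CG dinucleotides, with 35 in 300 bases and 73.7% G and C, and that of MNAT1 the poorest, with 13 and 49.7%. The median window held 14 and 58.7%.

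The libraries held between 7461309 and 8349448 expected counts (reads as RSEM assigned them to genes). Between 35.15 and 725 of these fell on a member in a library. All 10 members passed the filter on low counts, as did 16948 genes in all. The 7 basal mammary epithelial markers fixed for this line were all expressed, with a sum between 1703 and 14743 FPKM (fragments per length of transcript, scaled to the depth of the library). They differed between the groups, with means for KRT5 of 6013 FPKM in NT and 455 FPKM in TAM+TPL, and for TP63 of 18.4 FPKM in NT and 0.46 FPKM in NT+TPL, while the mean for ITGB4 was higher with TPL in both states (379 FPKM in NT and 628 in NT+TPL). Of the 4 luminal markers, ESR1, part of which the fusion holds, lay between 36.9 and 248 FPKM, KRT8 between 89.8 and 439.6 FPKM and GATA3 between 1.71 and 6.38 FPKM, and KRT19 did not exceed 0.09 FPKM. The markers of other cell types were low, with sums up to 2.14 FPKM for leukocytes (PTPRC and CD3E), 1.73 FPKM for endothelium and 12.8 FPKM for fibroblasts, and CDH5 was at 0. The part of these shifts in the member values was not tested. The values are shares of the poly-A RNA of a library, so a change in the RNA of the whole cell, or in the number of cells, cannot be told apart from them.

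The 10 mRNAs were not equally abundant. Per length, in FPKM, the order in NT was ERCC2 (33.0 ± 4.36), CCNH (21.8 ± 0.962), CDK7 (17.5 ± 2.61), ERCC3 (16.7 ± 2.11), GTF2H4 (15.2 ± 0.990), GTF2H3 (13.3 ± 0.389), GTF2H1 (12.1 ± 1.3), MNAT1 (8.54 ± 0.368), GTF2H2 (3.63 ± 0.283) and GTF2H5 (2.72 ± 0.354), each with its SD and n = 2. In this order CDK7 overlapped ERCC3 and ERCC3 overlapped GTF2H4, and the libraries of the other neighbours did not overlap. Among 14489 genes with a mean of at least 1 FPKM, ERCC2 stood at the 85.6th percentile of the NT levels and GTF2H5 at the 26.2nd. The FPKM of GTF2H5 rest on a model of 7503 bases, the longest of the members, and those of MNAT1 on 1397 bases. The order differed between the groups at both ends. ERCC2 (22.1 ± 0.629) was also the highest member in NT+TPL, and in TAM the mean of CCNH (25.5 ± 0.559) was above that of ERCC2 (22.6 ± 5.61), with overlapping libraries. In TAM+TPL the highest member was GTF2H3 (21.1 ± 0.120), above ERCC2 (15.2 ± 2.47), and GTF2H4 (4.64 ± 0.240) stood beside GTF2H5 (4.28 ± 0.742), with overlapping libraries.

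TPL was compared with DMSO in NT cells, in TAM cells and as the mean of both effects, which uses all 8 libraries. An mRNA is said here to have risen or fallen where its adjusted p was at most 0.05, and it is called where the adjusted p was at most 0.001 and the log2 fold change at least 1.2 in size. Over both states 7 of the 10 mRNAs fell and 1, that of GTF2H5, rose. Among all genes 26.1% fell and 25.6% rose, so 51.8% of genes passed in either direction, beside 8 of the 10 members. In NT cells 5 members fell and 1 rose, against 19.8% and 17.2% of all genes (37.0% together), and in TAM cells 4 fell and 0 rose, against 18.6% and 14.3% (33.0% together). The median log2 fold change of the 10 members was -0.64 in NT cells, -0.54 in TAM cells and -0.61 over both, while that of all genes was 0.09, 0.05 and 0.08. A call was made for 1 member, GTF2H4 over both states, where 10.1% of genes were called. In each state alone 0 members were called, with 3.93% of genes called in NT cells and 2.88% in TAM cells. In each state 7 members had an unadjusted p under 0.05 in edgeR, as did 47.8% of all genes in NT and 45.1% in TAM cells, and over both states it was 8 members and 58.7% of all genes. DESeq2 called 1 member in each comparison, GTF2H4, where it called 15.1% of all genes in NT cells, 13.4% in TAM cells and 18.1% over both states.

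**Figure D1:**
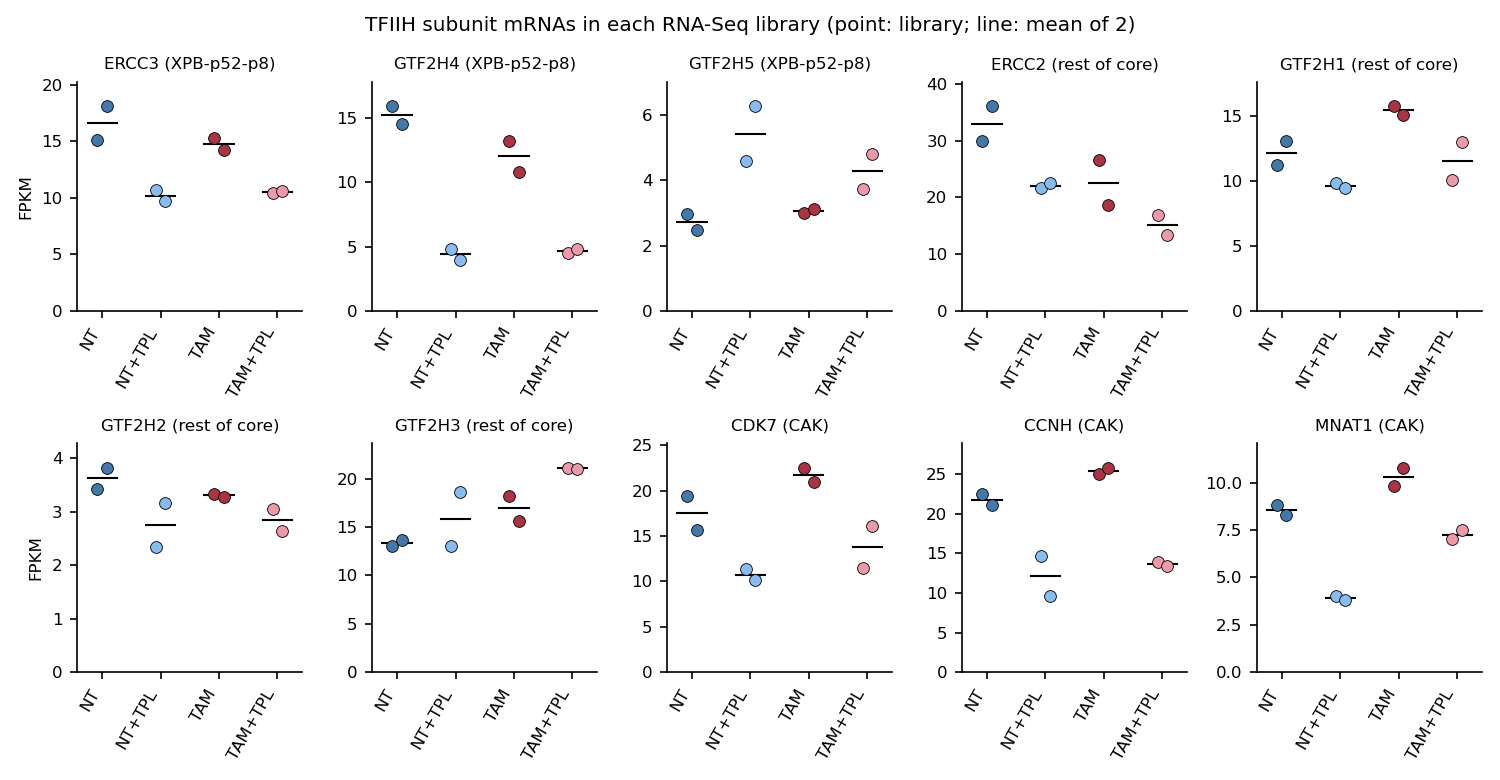
FPKM of the 10 TFIIH subunit genes (y axes, from 0, each gene on its own scale) in the groups NT, NT+TPL, TAM and TAM+TPL (x axes); each point is 1 library and each line the mean of 2. The TPL libraries of ERCC3, GTF2H4, GTF2H2, CCNH and MNAT1 all lie below the DMSO libraries, those of GTF2H5 all lie above them, and the other 4 genes overlap.

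The ranges of the single libraries were compared without a fit. For 5 of the 10 members all 4 TPL libraries were below all 4 DMSO libraries in FPKM, for 1 member they were all above, and for 4 they overlapped. Among all genes tested 21.0% were below and 21.0% above in this way. These were not the same members as those that passed the test, since GTF2H2 lay below without passing, and ERCC2, GTF2H1 and CDK7 passed with overlapping libraries.

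The XPB-p52-p8 submodule, which holds the TPL target, did not move as a block. ERCC3 was at 15.16 and 18.14 FPKM for NT, 10.72 and 9.68 for NT+TPL, 15.32 and 14.21 for TAM, and 10.45 and 10.59 for TAM+TPL. The 4 TPL libraries were close to one another and below each DMSO library. ERCC3 fell 1.54-fold over both states (log2 fold change -0.62, SE 0.104, adjusted p = 0.0028), the log2 values being -0.71 in NT (adjusted p = 0.0104) and -0.53 in TAM cells (adjusted p = 0.0322).

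GTF2H4, which encodes p52, had the largest fall of the 10 members in each of the 3 comparisons. It was at 15.94 and 14.54 FPKM for NT, 4.81 and 3.96 for NT+TPL, 13.25 and 10.79 for TAM, and 4.47 and 4.81 for TAM+TPL. The lowest DMSO library, at 10.79, was far above the highest TPL library, at 4.81. The fold was 3.06 over both states (log2 fold change -1.61, SE 0.143, 95% confidence interval -1.95 to -1.27, adjusted p = 0.000199), 3.49 in NT cells (adjusted p = 0.00111) and 2.68 in TAM cells (adjusted p = 0.0029). In NT cells the adjusted p thus lay just above the limit of a call. Of all genes tested, 8.71% had a lower log2 fold change over both states. With 1 library left out, the log2 fold change of GTF2H4 over both states stayed between -1.69 and -1.55. The call was lost in most of these fits, each of which has a group with a single library. Fewer of all genes were called in each of them than with all libraries.

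GTF2H5, which encodes the small subunit p8, went the other way. It was at 2.97 and 2.47 FPKM for NT, 4.58 and 6.28 for NT+TPL, 3.01 and 3.11 for TAM, and 3.75 and 4.80 for TAM+TPL. Every TPL library was above every DMSO library, and the libraries of the NT+TPL group differed most. GTF2H5 has 1 listed transcript, yet its expected counts were fractional, such as 183.41 for NT replicate 1. RSEM thus shared part of its reads with other rows, as it did for GTF2H3 and GTF2H2. The counts of the other members were whole numbers, and the part of read sharing in the rise was not tested. GTF2H5 rose 1.64-fold over both states (log2 fold change 0.72, SE 0.162, adjusted p = 0.00965) and 2.0-fold in NT cells (1.0 on the log2 scale with an SE of 0.231, adjusted p = 0.0157). In TAM cells the log2 fold change was 0.43, with a 95% confidence interval from -0.11 to 0.98 and an adjusted p of 0.184. The rise in NT cells lost the threshold without NT replicate 2 (adjusted p = 0.101), without NT+TPL replicate 2 (0.0549) and with GAPDH as the reference gene (0.109).

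In the rest of the core, 2 of the 4 mRNAs, those of ERCC2 and GTF2H1, fell over both states. Among all genes 26.1% fell there and 51.8% passed in either direction. In a single state 0 of the 4 passed, beside 37.0% of all genes in NT and 33.0% in TAM cells. With 4 genes these counts are not read as a trait of this part of the core. The log2 fold change of ERCC2 over both states was close to that of ERCC3 (-0.60 and -0.62). ERCC2, the XPD helicase, was at 29.93 and 36.10 FPKM for NT, 21.63 and 22.52 for NT+TPL, 26.58 and 18.64 for TAM, and 16.91 and 13.42 for TAM+TPL. The TPL libraries were lower within each state, and the ranges of all DMSO and all TPL libraries overlapped, with TAM replicate 2 below both NT+TPL libraries. ERCC2 fell 1.51-fold over both states (log2 fold change -0.60, SE 0.153, adjusted p = 0.0158), and this missed the threshold without NT replicate 2 (adjusted p = 0.0539), without TAM+TPL replicate 2 (0.0622) and with upper-quartile scaling (0.0754). In each state alone it did not pass, with adjusted p = 0.0764 in NT and 0.0676 in TAM cells.

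GTF2H1 encodes p62, the subunit that contacts TFIIE and repair proteins. It was at 11.20 and 13.04 FPKM for NT, 9.80 and 9.42 for NT+TPL, 15.75 and 15.08 for TAM, and 10.06 and 13.00 for TAM+TPL. The TPL libraries were lower within each state and overlapped those of the other state. GTF2H1 fell 1.32-fold over both states (log2 fold change -0.40, SE 0.118, adjusted p = 0.0271). This passed without NT replicate 1, NT+TPL replicate 1 or TAM+TPL replicate 2 and missed the threshold without any of the other 5 libraries, with adjusted p between 0.0513 and 0.0893. It also missed it with upper-quartile scaling (log2 fold change -0.17, adjusted p = 0.239).

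GTF2H2 and GTF2H3, which encode the zinc-binding subunits p44 and p34, did not pass in any TPL comparison. GTF2H2 was at 3.43 and 3.83 FPKM for NT, 2.34 and 3.17 for NT+TPL, 3.34 and 3.28 for TAM, and 3.06 and 2.64 for TAM+TPL. Its TPL libraries were all below its DMSO libraries, and its counts were the lowest of the members, between 35.15 and 60.61 per library. The log2 fold change over both states was -0.32, with a 95% confidence interval from -0.85 to 0.20. GTF2H3 was at 13.06 and 13.61 FPKM for NT, 13.08 and 18.57 for NT+TPL, 18.18 and 15.66 for TAM, and 21.14 and 20.97 for TAM+TPL. Both NT libraries were close to the lower of the NT+TPL libraries, and in TAM cells both TPL libraries were higher. Its log2 fold change over both states was 0.25, with a 95% confidence interval from -0.08 to 0.57, and it passed with upper-quartile scaling (0.48, adjusted p = 0.0227) and without NT+TPL replicate 1 (0.37, adjusted p = 0.0204). In NT cells it was 0.23, and the sign turned to -0.045 without NT+TPL replicate 2 and to -0.12 with GAPDH as the reference.

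All 3 kinase module mRNAs fell over both states and in NT cells, where 26.1% and 19.8% of all genes fell. In TAM cells those of CDK7 and CCNH fell, where 18.6% of all genes did. CDK7, the kinase, was at 19.38 and 15.69 FPKM for NT, 11.34 and 10.12 for NT+TPL, 22.56 and 20.96 for TAM, and 11.54 and 16.12 for TAM+TPL. TAM+TPL replicate 2 was the only TPL library above a DMSO library, that of NT replicate 2. CDK7 fell 1.63-fold over both states (log2 fold change -0.71, SE 0.148, adjusted p = 0.00697), with almost equal values of -0.72 in NT and -0.70 in TAM cells (adjusted p = 0.0356 and 0.0401). With 1 library left out these single-state passes were kept in 2 of 8 fits for NT and in 3 of 8 for TAM cells, and both were lost with upper-quartile scaling (adjusted p = 0.104 and 0.128).

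CCNH, the cyclin that activates CDK7, was at 22.47 and 21.11 FPKM for NT, 14.72 and 9.57 for NT+TPL, 25.06 and 25.85 for TAM, and 13.95 and 13.36 for TAM+TPL. The lowest DMSO library was above the highest TPL library by more than the spread of any group. CCNH fell 1.84-fold over both states (log2 fold change -0.88, SE 0.147, adjusted p = 0.00272), with -0.85 in NT and -0.92 in TAM cells (adjusted p = 0.0198 and 0.0157).

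MNAT1, which encodes the factor that holds the kinase module together, was at 8.80 and 8.28 FPKM for NT, 4.04 and 3.81 for NT+TPL, 9.83 and 10.80 for TAM, and 7.03 and 7.5 for TAM+TPL. The TAM+TPL libraries stood between those of NT+TPL and those of the DMSO groups. MNAT1 fell 1.79-fold over both states (log2 fold change -0.84, SE 0.153, adjusted p = 0.00394) and 2.18-fold in NT cells (log2 fold change -1.13, adjusted p = 0.00839). In TAM cells its log2 value was -0.55, at an adjusted p of 0.0869. The difference between the effects of both states was 0.57 on the log2 scale, with a 95% confidence interval from -0.14 to 1.29 and an adjusted p of 0.541.

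**Figure D2:**
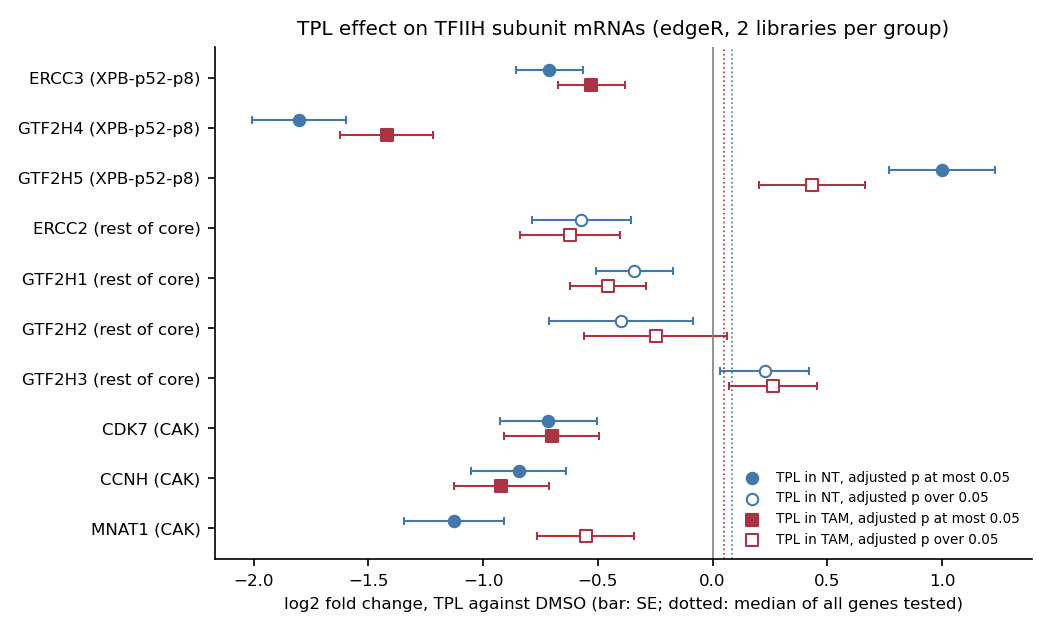
Log2 fold change of TPL against DMSO for the 10 members (x axis) in NT cells (circles) and TAM cells (squares), with SE bars; filled symbols have an adjusted p of at most 0.05 in edgeR and dotted lines give the medians of all genes tested, 0.09 and 0.05. GTF2H4 lies farthest to the left at -1.80 and -1.42, and GTF2H5 and GTF2H3 are the members to the right of 0.

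The adjusted p values moved with the settings, most of all in a single state. Over both states, the falls of ERCC3, GTF2H4, CDK7, CCNH and MNAT1 stayed at an adjusted p of at most 0.05 in all 19 alternative fits, 8 of which leave out 1 library, and the rise of GTF2H5 missed it in 1, with GAPDH as the reference (adjusted p = 0.0765). In single states the same was true of GTF2H4 in both, in all 20 fits. Of the others that passed in NT cells, MNAT1 kept it in 19 of the 20 fits, ERCC3 in 18, GTF2H5 in 17, CCNH in 15 and CDK7 in 11. In TAM cells CCNH kept it in 16, CDK7 in 12 and ERCC3 in 11. In NT cells the number of members with an adjusted p of at most 0.05 was 2 to 6 when 1 library was left out, with the lowest count without NT replicate 2, and in TAM cells it was 1 to 4, with the lowest count without TAM replicate 1, TAM replicate 2 or TAM+TPL replicate 1. The share of all genes that passed moved with it, from 17.7% to 35.6% for NT cells and from 13.2% to 36.2% for TAM cells.

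The summed FPKM of the 10 genes gives the size of the change for the complex as mRNA. The sum was 142 and 147 FPKM for NT, 97.1 and 97.1 for NT+TPL, 153 and 138 for TAM, and 102 and 107 for TAM+TPL, so that no TPL library reached a DMSO library. The shares of the sub-assemblies differed. The core without XPB, p52 and p8 made up between 38.1% and 45.4% of the sum in the DMSO libraries and between 46.7% and 55.3% in the TPL libraries. The XPB-p52-p8 submodule made up 23.9% in both NT libraries and 20.7% and 20.5% in NT+TPL, and 20.7% and 20.3% in TAM against 18.2% and 18.8% in TAM+TPL. The kinase module made up 35.6% and 30.7% in NT against 31.0% and 24.2% in NT+TPL, which overlap, and 37.6% and 41.6% in TAM against 31.8% and 34.5% in TAM+TPL. These sums weigh each mRNA by its abundance and are descriptions, with no test.

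GTF2H2 lies in a duplicated part of chromosome 5, and the files list 3 copies of it, GTF2H2B, GTF2H2C and GTF2H2D. Reads of near-identical copies can be shared out between them in more than one way, so the GTF2H2 values are uncertain. In NT, GTF2H2C was at 18.00 and 17.59 FPKM and GTF2H2B at 13.36 and 11.53 FPKM, both above GTF2H2 itself. GTF2H2D, the copy with the largest change, was at 2.49 and 4.24 FPKM for NT, 0.91 and 0.60 for NT+TPL, 4.31 and 6.48 for TAM, and 0.97 and 1.25 for TAM+TPL. It fell 4.74-fold over both states (log2 fold change -2.24, SE 0.325, adjusted p = 0.0015). With GTF2H2 and its copies summed, and rows of the same symbol joined, the log2 fold change of the sum was -0.50 in NT cells (adjusted p = 0.0258) and -0.45 over both states (adjusted p = 0.00548). In TAM cells it was -0.40 and did not pass (adjusted p = 0.0645).

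Transformation was compared next, TAM against NT. Without TPL, 0 of the 10 members had an adjusted p of at most 0.05, against 6.84% of all genes, and 0 were called, against 0.655%. Their log2 fold changes ran from -0.51 for ERCC2 (95% confidence interval -1.02 to -0.003, adjusted p = 0.248) to 0.37 for GTF2H3 (adjusted p = 0.365). ERCC2 was the only member with an unadjusted p under 0.05 in edgeR, as were 19.9% of all genes, and DESeq2 called 0 members and 4.40% of all genes. With GAPDH as the reference ERCC2 passed (log2 fold change -0.995, adjusted p = 0.0498). With TPL present, 0 members passed, against 7.03% of all genes, and 0 were called, against 0.596%. DESeq2 also called 0 members, beside 3.96% of all genes. MNAT1 came nearest, with a log2 fold change of 0.86 (95% confidence interval 0.34 to 1.38, adjusted p = 0.0667). It passed in 5 of 20 alternative fits, DESeq2 and limma among them, at adjusted p values down to 0.0207. ERCC2 was again the lowest at -0.56 (adjusted p = 0.201). These 2 members and 21.3% of all genes had an unadjusted p under 0.05. The intervals of the other 8 members spanned 0 in both comparisons.

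The TPL effect did not differ between NT and TAM cells for any member at an adjusted p of 0.05, where 0.165% of all genes passed and 0% were called. The differences ran from -0.57 for GTF2H5 (95% confidence interval -1.33 to 0.20, adjusted p = 0.571) to 0.57 for MNAT1 on the log2 scale, and 0 members, beside 10.6% of all genes, had an unadjusted p under 0.05 in edgeR. For ERCC3 the difference was 0.18 (95% confidence interval -0.31 to 0.67) and for GTF2H4 0.38 (-0.28 to 1.05). DESeq2 called 0.850% of all genes in this comparison and 0 members. With 2 libraries per group these confidence intervals are wide, and differences up to their ends remain compatible with the data.

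RNAPII at the promoters was read from 4 lists of peaks that hold a TSS, 1 list per condition. The lists give starts and ends and no height, so only presence and extent can be compared, without a test. In each of the 4 lists 9 of the 10 members had a peak over the main TSS. Among protein-coding genes with a mean of at least 1 FPKM the share was 75% for NT, 60.4% for NT+TPL, 66.7% for TAM and 59.4% for TAM+TPL. Of the genes with a peak in NT, 22.2% had none in NT+TPL, and of those with a peak in TAM, 18.5% had none in TAM+TPL, while 0 of the 9 members lost theirs. The peak names of the TAM list carry another cutoff setting, so its shares and losses are not on equal terms with the other lists. The 9 members with a peak included ERCC3, CDK7, CCNH and MNAT1, whose mRNA fell. They also included GTF2H2, which has near-identical copies, and how the ChIP reads of these copies were placed was not tested.

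GTF2H4 had no peak over any annotated TSS, nor within 1 kb of its main TSS, in any list. It lies at chr6:30875984-30881883 on the plus strand, in the major histocompatibility region. The nearest listed peak was 187587 bp away for NT, 6076 bp for NT+TPL, 186664 bp for TAM and 290879 bp for TAM+TPL. Its neighbours were like it. Of 58 other expressed protein-coding genes within 1 Mb, 6 had a peak for NT, 2 for NT+TPL, 3 for TAM and 4 for TAM+TPL, whereas around the other 9 members the share in NT lay between 29 of 46 genes, for ERCC2, and 12 of 12, for CDK7. The lists also hold peaks on 7 alternative haplotypes of chromosome 6, 49 of them in NT. Since the whole stretch is poor in listed peaks, nothing about RNAPII at GTF2H4 is read from the missing peak.

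The widths of the peaks at the 9 other members changed in no single direction. In NT cells 5 were narrower with TPL (ERCC3, GTF2H5, ERCC2, GTF2H1 and GTF2H2) and 4 were wider (GTF2H3 and the 3 kinase module genes), and among the 6885 expressed genes with a peak in both lists 62.9% were narrower. The ERCC3 peak went from 909 bp in NT to 700 bp in NT+TPL, and that of GTF2H1, the widest of the members, from 1371 to 997 bp. The CDK7 peak went from 474 to 763 bp and that of CCNH from 434 to 626 bp. In TAM cells 8 of 9 were wider with TPL and that of ERCC2 was narrower, and 44.5% of all such genes were narrower. The names of the TAM peaks carry another cutoff setting than those of the other 3 lists, so widths against the TAM list are not on equal terms, and all names carry replicate 1.

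**Figure D3:**
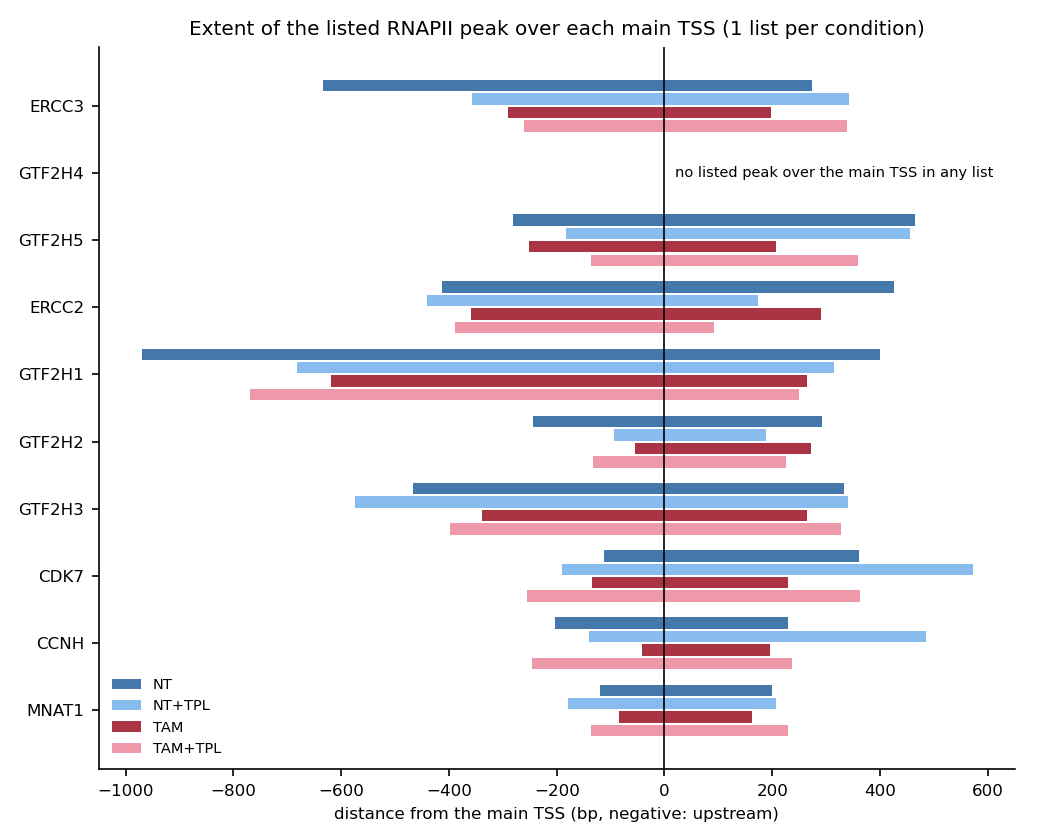
Extent of the listed RNAPII peak over the main TSS of each member (x axis, bp from the TSS in the direction of transcription, negative upstream), with 1 bar for each of the 4 conditions. All members but GTF2H4 have a peak in every list, and the GTF2H1 peak reaches 970 bp upstream in NT.

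At 3 members the peak also held the TSS of a neighbour that starts close by on the other strand. In these pairs the log2 fold changes of both sides over both states had opposite signs. Among all 16948 genes tested, 7999 had a value below 0 in that comparison, and other pairs of this kind were not counted. GTF2H5 starts 88 bp from SERAC1, which encodes a lipid-remodelling protein of mitochondria and the endoplasmic reticulum. SERAC1 was at 2.03 and 1.71 FPKM for NT, 0.46 and 0.80 for NT+TPL, 1.96 and 2.64 for TAM, and 0.81 and 0.93 for TAM+TPL. SERAC1 fell (log2 fold change over both states -1.52, SE 0.304, adjusted p = 0.00581) where GTF2H5 rose.

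GTF2H1 starts 427 bp from HPS5, which acts in the making of lysosome-related organelles, and the directions were exchanged. HPS5 was at 5.69 and 5.23 FPKM for NT, 8.93 and 6.47 for NT+TPL, 3.75 and 4.72 for TAM, and 8.86 and 10.17 for TAM+TPL. It rose over both states (log2 fold change 0.80, SE 0.146, adjusted p = 0.0039) where GTF2H1 fell. GTF2H3 starts 143 bp from EIF2B1, a subunit of a translation initiation factor. EIF2B1 fell (log2 fold change -0.39, SE 0.104, adjusted p = 0.0178), while the value of GTF2H3 was 0.25 without passing. The difference within a pair was not tested itself. The lists cannot tell on which strand of a shared peak RNAPII was bound.

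Other factors that work with TFIIH were counted from lists fixed by function. The 8 other general transcription factors bring RNAPII to the promoter. Over both states 3 rose and 2 fell, where 25.6% and 26.1% of all genes did, with a median log2 fold change of -0.23. GTF2B, which encodes TFIIB and links TBP to RNAPII, was the one called, beside 10.1% of all genes. It was at 17.67 and 13.43 FPKM for NT, 65.50 and 81.88 for NT+TPL, 13.58 and 14.34 for TAM, and 63.02 and 56.62 for TAM+TPL. The groups were far apart, with a log2 fold change over both states of 2.15 (SE 0.145, adjusted p = 7.5e-05). GTF2E1 and GTF2A1 also rose, and GTF2F2, of TFIIF, and GTF2E2, of TFIIE, fell. GTF2E1 and GTF2E2 encode the large and the small subunit of TFIIE, the factor that recruits TFIIH, and their log2 fold changes were 0.60 (adjusted p = 0.00939) and -0.81 (adjusted p = 0.0233).

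The 13 repair factors were tested in 15 rows, because ERCC6 and UVSSA have more than 1. Over both states 2 rows rose and 3 fell, so that 5 of 15 passed, where 51.8% of all genes did, and the median was -0.10. RAD23B, a partner of the damage sensor XPC, was the 1 row called, against 10.1% of all genes. It was at 69.34 and 82.32 FPKM for NT, 26.57 and 18.86 for NT+TPL, 49.44 and 54.29 for TAM, and 24.13 and 24.26 for TAM+TPL. Its log2 fold change was -1.46 (SE 0.129, adjusted p = 0.000195), close in size to that of GTF2H4. XPA and ERCC1 fell, and DDB2, a damage sensor and p53 target (log2 fold change 1.07, SE 0.118, adjusted p = 0.000464), and ERCC4 rose. The highest values of the list were those of both UVSSA rows, at 3.41 (SE 1.55, adjusted p = 0.113) and 1.54 (SE 0.739, adjusted p = 0.12), which did not pass.

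**Figure D4:**
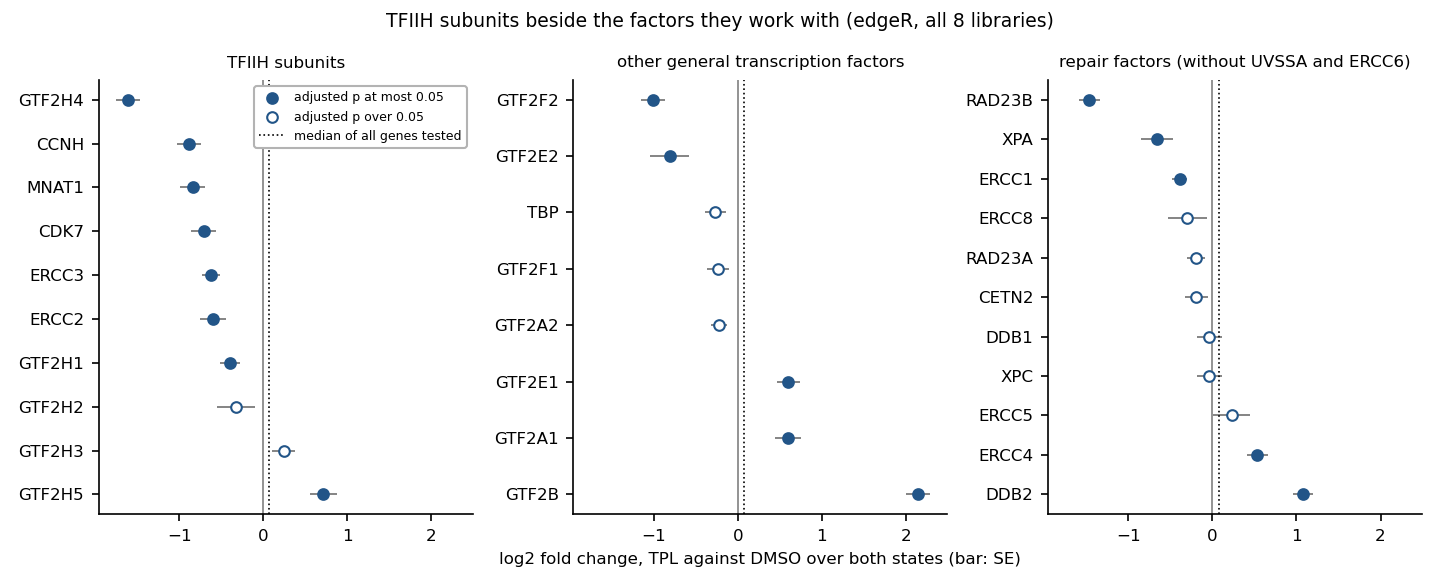
Log2 fold change of TPL against DMSO over both states (x axes) with SE bars for the 10 TFIIH subunits, the 8 other general transcription factors and 11 repair factors, without UVSSA and ERCC6; filled points have an adjusted p of at most 0.05 in edgeR, and the dotted line is the median of all genes tested, 0.08. The lowest points shown are GTF2H4 at -1.61, GTF2F2 at -1.01 and RAD23B at -1.46, and the highest are GTF2H5 at 0.72, GTF2B at 2.15 and DDB2 at 1.07; the UVSSA rows, not drawn, lie at 3.41 and 1.54.

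The genes most like ERCC3 and GTF2H4 in pattern were found by the root mean square difference of centred log2(FPKM + 1) over the 8 libraries, among 14489 genes with a mean of at least 1 FPKM. For ERCC3 they were DNAJC16 (0.0487), RASSF8 (0.0556) and CHFR (0.0586), and for GTF2H4 they were CDS1 (0.0848), MTA2 (0.0917) and ZNF282 (0.0959). The subunits were not each other's nearest. From ERCC3, the nearest other subunit was GTF2H2 at rank 1038 (0.203), and GTF2H4 was at rank 5941 (0.440). From GTF2H4, the nearest subunit was CCNH at rank 1361 (0.363), and GTF2H5 was at rank 10362 (1.02). This measure is a description, and genes with little change are near to one another by its construction.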

How the data were processed

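TPL was used at 125 nM for 4 h per the labels. The expected counts and FPKM were made by the authors, who aligned poly-A reads to reference genes with Bowtie2 and estimated both with RSEM, as deposited. Counts carry no normalization and FPKM are per transcript length and mapped reads. The peak positions (other values) were made by the authors from SOAP2 alignments to hg19 with MACS 1.4.2, as deposited without scores. Genes not listed in a library were taken as 0. Of 23604 genes, 21077 were named by gene ID and 2407 by accession.

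Rounded counts of 16948 genes entered a single edgeR 4.0.16 fit of 4 groups (R 4.3.3) with TMM factors, filterByExpr and no replicate block. The quasi-likelihood p-values were adjusted after Benjamini and Hochberg. Every adjusted p in the text comes from it unless another tool, another setting or a left-out library is named. The biological coefficient of variation was 0.315. Alternatives used DESeq2 1.42.0 and limma 3.58.1 on log2(FPKM + 1) and log2(FPKM + 0.1). Main TSSs came from GENCODE release 44 on build 37.

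The text names all 10 members, the GTF2H2 copies, the members of both factor lists that were called and the 3 genes nearest in pattern to ERCC3 and to each member called. Factors that passed without a call, the neighbours that share a promoter and the sequences were added after their values were seen. The members and lists were chosen with earlier results of these data known. ChIP read depth and inputs were not used here. A marker of the leukocyte list is not reported here.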

Additional observations from a re-analysis of the deposited data

How the results depend on the processing

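The number of members called moved from 0 to 1, always GTF2H4, for TPL in NT cells with DESeq2, with GAPDH as the reference, with at least 10 counts in every library, with limma at a pseudocount of 1 or 0.1 and with rows summed by symbol, where these settings called between 3.94% (GAPDH) and 15.1% (DESeq2) of all genes, beside 3.93%. For TPL in TAM cells it moved from 0 to 1 with DESeq2 and with rows summed by symbol, which called 13.4% and 11.3% of all genes, beside 2.88%. At an adjusted p of 0.05 with no fold minimum the counts were 6 in NT cells, 4 in TAM cells and 8 over both states. The shares of all genes there were 37.0%, 33.0% and 51.8%. With 1 library left out, the call of GTF2H4 over both states was lost in most fits, and fewer of all genes were called in each of them. Its log2 fold change there stayed between -1.69 and -1.55. GAPDH as the reference moved the median of all genes from 0.09 to -0.26 for TPL in NT cells, from 0.05 to -0.07 in TAM cells and from -0.03 to -0.50 for TAM against NT with DMSO, and the upper quartile moved the first to 0.31. With GAPDH, signs turned for GTF2H3 with TPL in NT cells (-0.12, and between -0.045 and 0.47 with 1 library left out) and for 6 members in TAM against NT with DMSO, to values between -0.27 and -0.11 (-0.12 for GTF2H1 and -0.11 for GTF2H3), all above the median of all genes. They also turned for 4 members with TPL present, to between -0.23 and -0.057 (median of all genes -0.25), and for 3 in the difference of the TPL effects, to between 0.15 and 0.19 (median 0.22). With DESeq2 and the other 3 scalings the sign of 0 members turned. The cause of these moves was not tested. Peak counts stayed at 9 with any annotated TSS, within 1 kb and with protein-coding transcripts only.

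Replicate numbers are shared between groups, but deviations of libraries with the same number correlated between -0.197 and 0.0751, so the numbers were not taken as pairs. With the replicate block 0, 0 and 1 members were called for TPL in NT cells, in TAM cells and over both states, where 0%, 0% and 6.12% of all genes were called, so the counts of 0 say nothing about the members. At an adjusted p of 0.05, 5, 2 and 8 members passed, beside 31.8%, 27.6% and 47.7% of all genes. With 2 libraries per group and a median of 2.98 prior degrees of freedom, the tests of a single state are wide, and the replicates measure the spread between cultures of a single line.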
